A study of Mus musculus and Rattus norvegicus with 36 samples.

Results

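Lysosomal genes encode the acid hydrolases, membrane proteins and proton pump of the compartment in which cells break down proteins, glycans and lipids. Expression was examined for 36 listed genes, all of them found by symbol among the 32359 distinct gene symbols of the 5 tables of normalized read counts. The list holds 6 membrane or surface proteins, 11 proteases (the cathepsins and Tpp1), 2 cystatins, 9 glycan hydrolases, 4 genes of lipid handling and enzyme activation, 2 subunits of the proton pump, the transcription factor Tfeb and the autophagy adaptor Sqstm1. A gene was tested in a table where its value reached 10 in at least 3 libraries. All 36 members passed in the 3 mouse tables and 35 passed in each rat table, where the calcium channel gene Mcoln1 lay below the minimum, at 0 to 5.03.

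The 36 poly-A libraries come from oligodendrocyte precursor cells (OPCs), the proliferating glia that give rise to myelinating oligodendrocytes, in 12 groups of 3. In 12 mouse libraries the cells were collected by immunopanning and lysed at once. They came from medial prefrontal cortex (mPFC) or hippocampus of Pdgfralpha-CreER;Baf155-flox/flox animals (knockout) or of Baf155-flox/flox animals (control), so both genotypes carry the floxed allele and differ in the Cre, which the Pdgfra promoter directs to OPCs and to other cells that express that receptor. The tissue is labelled mPFC, while the isolation protocol speaks of cortex. Baf155, gene symbol Smarcc1, is a core subunit of the BAF chromatin remodelling complex. A further 12 libraries are wild-type mouse OPCs cultured from mPFC or hippocampus for 2 days and then given 200 uM GABA for 24 h or left untreated. The last 12 are wild-type rat cortical OPCs, also cultured for 2 days and then treated for 24 h or left untreated. They form 1 set with 200 uM GABA or no treatment and a separate set with 200 uM glutamate or no treatment. The labels do not give the age of the animals, or any schedule of Cre induction, and do not say whether replicates are separate animals or cultures, so p-values measure the spread between these libraries only.

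Lysosomal enzymes are made in the endoplasmic reticulum, tagged with mannose 6-phosphate and sorted to an acid compartment whose pH is set by the V-ATPase. Cathepsins cleave proteins there, cystatins inhibit cysteine cathepsins, and saposins released from prosaposin present sphingolipids to the glycan hydrolases. Tfeb and its relatives Mitf and Tfe3 bind short E-box-like letters in the promoters of many of these genes. In the brain, microglia are rich in several of these transcripts, among them Ctss and Cd68, which were kept out of the 36.

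The E-box-like letters were read in mouse promoters from RefSeq on GRCm38.p6, from 250 bases before to 50 after each gene's start. Of the 36 members 32 matched an entry, and Ctsb, Ctsh, Cstb and Atp6v1h did not. TCACGTG, read on both strands, was in 10 of the 32 member promoters (31.25%), against 4.29% of the 27025 genes with an entry. The related TCATGTG was in 6 of 32 (18.75%), against 4.31% of all genes, and Ctsa and Gla held both. CACGTG, which lies inside TCACGTG, was in 12 of 32 (37.5%), against 8.09%. Matches from members of different roles are shown to let the shared letters be seen, each 5′ to 3′ on the gene's strand with 15 flanking bases and the match in capitals.
Lamp1, chr8:13159084-13159120, plus strand: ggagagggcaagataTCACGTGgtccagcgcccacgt
Mcoln1, chr8:3500432-3500468, plus strand: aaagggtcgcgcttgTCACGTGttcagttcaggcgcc
Ctsd, chr7:142387905-142387941, minus strand: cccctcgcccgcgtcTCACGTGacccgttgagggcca
Gaa, chr11:119267807-119267843, plus strand: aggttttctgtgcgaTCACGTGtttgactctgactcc
Naglu, chr11:101070005-101070041, plus strand: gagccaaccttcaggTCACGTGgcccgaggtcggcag
Glb1, chr9:114401014-114401050, plus strand: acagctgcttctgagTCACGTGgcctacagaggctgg
Atp6v0d1, chr8:105566047-105566083, minus strand: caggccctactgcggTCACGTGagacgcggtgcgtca
Scarb2, TCATGTG on the other strand, chr5:92505668-92505704, minus strand: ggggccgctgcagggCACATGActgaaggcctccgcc
The promoter of Gpnmb, the member with the largest change in both the knockout hippocampus and the glutamate comparisons, held none of these letters in its window, chr6:49036268-49036567, plus strand, and is given whole.
Gpnmb: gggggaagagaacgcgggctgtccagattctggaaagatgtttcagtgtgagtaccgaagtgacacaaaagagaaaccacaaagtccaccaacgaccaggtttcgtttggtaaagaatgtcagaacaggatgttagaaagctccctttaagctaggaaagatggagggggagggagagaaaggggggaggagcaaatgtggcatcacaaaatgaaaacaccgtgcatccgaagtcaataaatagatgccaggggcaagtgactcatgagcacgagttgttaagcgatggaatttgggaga
A match describes the letters only, and no match says only that they are absent from this window.

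Depth lay between 14826000 and 22129000 reads per library, taking the smallest step of a library's values as 1 read. Smarcc1 fell in the knockout by 0.66 ± 0.05 in mPFC and by 1.51 ± 0.05 in hippocampus on the log2 scale, as limma coefficient ± SE. The summed level of 10 OPC markers was 209265 to 219104 in knockout mPFC libraries, against 252724 to 253813 in control mPFC libraries. In hippocampus it was 217089 to 220425 in knockout libraries, against 242565 to 248512 in control libraries. Every knockout library thus lay below every control library, and the part of this in the changes of the members was not tested. The summed level of 17 microglial markers in the acute libraries was 1567 to 2489. The region labels of the acute controls went against those of the acute knockouts. Of 229 genes that differed by at least 1 on the log2 scale between knockout hippocampus and knockout mPFC, 62 (27.1%) differed in the same direction between control hippocampus and control mPFC. Dlx1, a forebrain patterning factor, differed between hippocampus and mPFC by -2.30 in knockouts, by 2.61 in controls and by -2.63 in untreated cultures. The cultures did not side with the knockouts for every gene. Zic1 differed by 0.96 in knockouts, by -1.29 in controls and by -0.46 in untreated cultures. Zic4 differed by 1.55, -1.08 and -0.23 in the same order. Which groups carry a wrong label, if any, was not tested. The knockout counts of members are therefore also given after an exchange of labels in which control mPFC and control hippocampus trade places. So are the values or calls of named members within a region, while marker counts within a region are given as labelled. After that exchange the log2 change of Smarcc1 was -0.86 in mPFC and -1.31 in hippocampus. The mean knockout effect over both regions is the same either way. Knockout mPFC replicate 3 and control hippocampus replicate 3 stood apart from the other libraries of their groups, with a mean chi-square per gene of 8.37 to 16.0 against them, where the other acute replicate pairs had 1.67 to 2.48. Without the first, 14 members were called in the mPFC comparison in place of 12, and without the other 16 in the hippocampal comparison in place of 15. The tables carry bulk RNA, in which fewer cells of a type and less RNA per cell cannot be told apart.

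Per kilobase of exon (GENCODE M21 models), prosaposin and Lamp1 were the most abundant members in all 8 mouse groups. In control hippocampal OPCs the normalized count per kb was 6788 ± 412 for Psap and 4693 ± 128 for Lamp1, a heavily glycosylated protein of the limiting membrane (SD, n = 3). In control mPFC OPCs Psap stood at 6176 and Lamp1 at 4678. Ctsh and Ctsk, both cysteine proteases, were the least abundant, at 9.98 and 19.6 per kb in control hippocampal OPCs. Tfeb and Ctsc, which trims dipeptides from protein ends, were next above them. Neighbours in the order often overlapped: of 35 neighbouring pairs, 15 overlapped in control hippocampal OPCs and 11 in control mPFC OPCs. Gpnmb, a transmembrane glycoprotein of the melanosome and lysosome family, took rank 30 in knockout hippocampal OPCs (69.5 ± 3.83 per kb) and rank 21 in control hippocampal OPCs (281 ± 5.84 per kb).

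**Figure D1:**
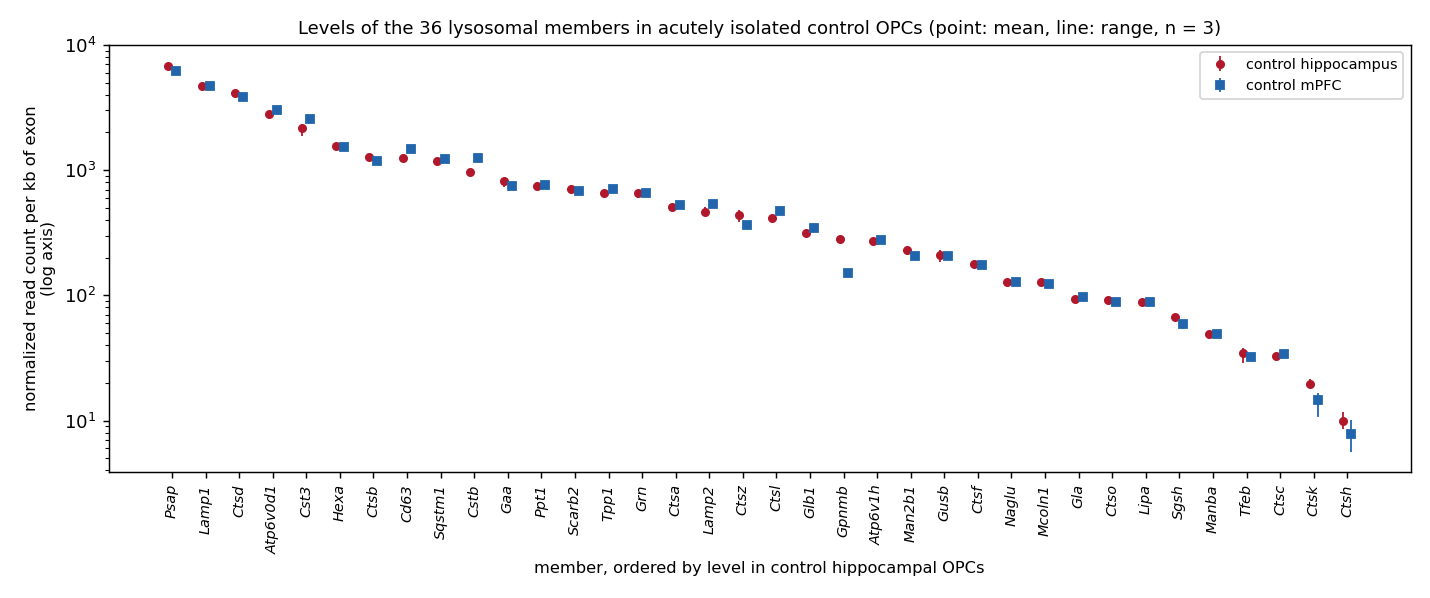
Normalized read count per kb of exon, on a log axis, for the 36 members in acutely isolated control hippocampal and control mPFC OPCs; points are means and lines the range of 3 libraries. Psap and Lamp1 have the highest levels in both groups, and Gpnmb stands at 281 in control hippocampal and 151 in control mPFC OPCs.

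In knockout hippocampal OPCs more members were lower than higher. Of the 36 members 2 rose, 13 fell and 21 did not pass, where 42.6% of all 13985 tested genes were called (adjusted p under 0.05, limma-trend with Benjamini-Hochberg adjustment over all genes), 21.7% higher and 21% lower. The share of members called is thus near that of all genes. The median change of the members was -0.10 on the log2 scale and that of all genes -0.00. With control labels exchanged 1 member rose, 19 fell and 16 did not pass. The shares of all genes above are those as labelled, and none is set beside the exchanged counts. Of the 11 proteases 9 fell as labelled and 10 after the exchange, and none rose either way. Of the 9 glycan hydrolases none was called as labelled, and Glb1, the acid beta-galactosidase, fell by 0.22 after the exchange (adjusted p = 0.00278). The 2 cystatins were not called as labelled, and both fell after the exchange, Cst3 by 0.27 and Cstb by 0.50.

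Gpnmb changed most. Its normalized counts were 482, 436 and 442 in knockout hippocampal OPCs, against 1870.3, 1794 and 1829.7 in control hippocampal OPCs. No knockout library came near the lowest control library, and the log2 change was -2.01 ± 0.06 (SE, adjusted p = 8.6e-12). With the control labels exchanged it was -1.11 and still passed. The gene lies at 49036546 to 49070929 on the plus strand of chromosome 6 (GRCm38).

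Among the proteases, Ctsd encodes the main aspartic protease of the lysosome. It read 7161, 7035 and 7057 in knockout hippocampal OPCs, against 10272, 10037 and 8979.6 in control hippocampal OPCs. The groups did not overlap, and the change was -0.46 ± 0.05 (adjusted p = 3.49e-06) and -0.36 with control labels exchanged. Ctsb, a cysteine protease that also trims peptides from protein ends, read 5693, 5628 and 5938 in knockout hippocampal OPCs, against 7898, 7859 and 7339 in control hippocampal OPCs. Its change was -0.42 ± 0.04 (adjusted p = 3.25e-06), or -0.33 after the exchange, again with no overlap. Ctsz, a carboxypeptidase, read 396, 456 and 426 in knockout hippocampal OPCs, against 691, 656 and 554 in control hippocampal OPCs. It changed by -0.57 ± 0.09, or by -0.30 after the exchange, and passed both times. The low-count protease Ctsk, best known from osteoclasts, read 13.6, 14.8 and 14.8 in knockout hippocampal OPCs, against 28.6, 32.6 and 27.9 in control hippocampal OPCs. Its change of -0.99 ± 0.21 (adjusted p = 0.00177) became -0.56 with control labels exchanged, which still passed. Ctsf, Ctso, Ctsc and Ctsa fell by 0.41, 0.34, 0.30 and 0.22 as labelled and by 0.37, 0.30, 0.36 and 0.27 after the exchange. Ctsh had a change of -0.62 ± 0.21 (adjusted p = 0.0289). That call was lost on leaving out control replicate 1 or 3 or knockout replicate 4 or 6 (adjusted p 0.0552 to 0.105), and after the exchange (-0.25).

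Outside the proteases, Grn, which encodes the progranulin precursor of lysosomal granulins, fell by 0.35 ± 0.06, or by 0.36 after the exchange. Lipa, the acid lipase that frees cholesterol from its esters, fell by 0.32 ± 0.06, or by 0.30 after the exchange. Sqstm1, the adaptor that carries ubiquitinated cargo into autophagosomes, fell by 0.28 ± 0.06, or by 0.34 after the exchange. Scarb2, the membrane receptor that delivers beta-glucocerebrosidase to lysosomes, went the other way. It read 5717, 5914 and 5816 in knockout hippocampal OPCs, against 4192, 4327 and 4756 in control hippocampal OPCs, a change of 0.40 ± 0.05 (adjusted p = 2.45e-05), or 0.44 after the exchange. Lamp2, another glycoprotein of the limiting membrane, read 5206, 5210.3 and 5207 in knockout hippocampal OPCs, against 4233, 4251 and 4882 in control hippocampal OPCs. It passed at 0.23 ± 0.07 as labelled, but not after the exchange (0.03), nor without control replicate 1 or 2 (0.19 and 0.20, adjusted p = 0.0695 and 0.0699).

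Microglial markers moved with these falls. Of 17 markers 1 rose and 10 fell, with a median of -1.13, where 42.6% of all genes were called. Without the 3 markers that are themselves lysosomal, the summed level of the other 14 was 453 to 497 in knockout hippocampal OPCs, against 886 to 994 in control hippocampal OPCs. With control labels exchanged the controls of that sum were at 633 to 686, again above the knockout libraries. No microglial marker was at 0 in any acute group. The sum of 8 markers of other myeloid cells was 334 to 383 in knockout hippocampal OPCs, against 1754 to 1817 in control hippocampal OPCs. The part of these cells in the falls was not tested.

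**Figure D2:**
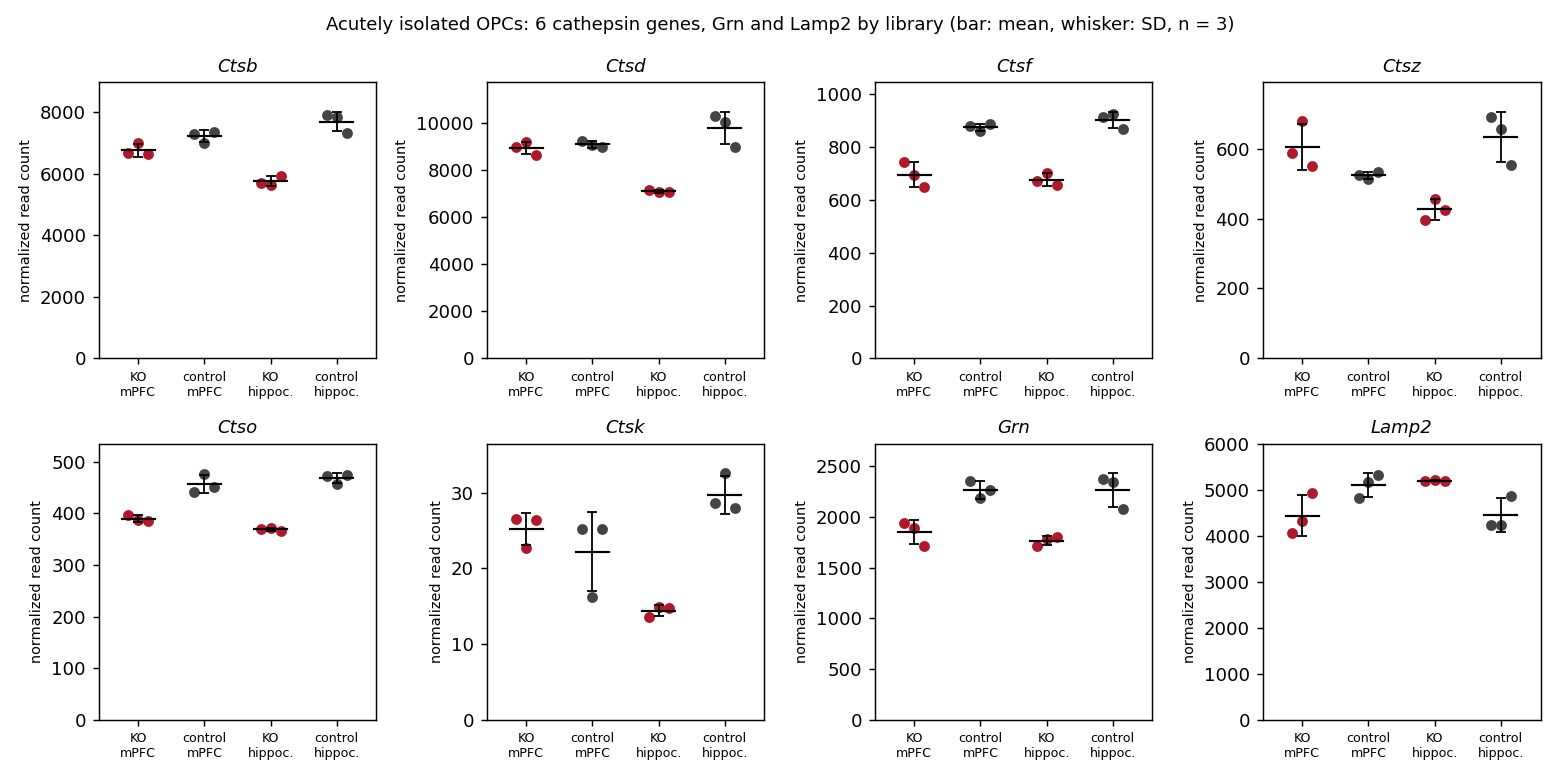
Normalized read counts of Ctsb, Ctsd, Ctsf, Ctsz, Ctso, Ctsk, Grn and Lamp2 in each acute library, knockout left of control for each region; bars are means and whiskers SDs of 3 libraries. Ctsb and Ctsd are lower in knockout than in control hippocampal OPCs with no overlap, while their mPFC groups lie close together as labelled. With control labels exchanged both were called lower in mPFC too (-0.19 and -0.13).

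In mPFC OPCs fewer members were called. Of the 36 members 3 rose, 9 fell and 24 did not pass, where 47.4% of all genes were called, 24.1% higher and 23.2% lower. Their median was -0.03, and that of all genes -0.02. With control labels exchanged 4 members rose, 7 fell and 25 did not pass, counts that have no share of all genes beside them. Of the 11 proteases 3 fell and 0 rose as labelled. After the exchange 4 fell: Ctsf, Ctso, Ctsb (-0.19) and Ctsd (-0.13). Ctsc and Ctsl then rose by 0.28 and 0.15, as did Cst3, by 0.26 ± 0.08. Gpnmb read 1032, 920.5 and 934 in knockout mPFC OPCs, against 939, 1036 and 967 in control mPFC OPCs. These ranges overlap and the change was -0.03 ± 0.06. With control labels exchanged it would be -0.93 and pass.

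Cstb, a cystatin that acts mainly in the cytosol, had the largest negative change. It read 601, 604 and 527 in knockout mPFC OPCs, against 758, 765 and 730.2 in control mPFC OPCs (-0.38 ± 0.07, adjusted p = 0.000579). The groups do not overlap, but with control labels exchanged the change was -0.01 and did not pass. Ctsf, a cysteine cathepsin, read 744, 693 and 648 in knockout mPFC OPCs, against 879, 861 and 887 in control mPFC OPCs (-0.34 ± 0.06), and -0.38 after the exchange. Grn read 1943, 1896 and 1717 in knockout mPFC OPCs, against 2361, 2186 and 2265 in control mPFC OPCs (-0.30 ± 0.06, and -0.29 after the exchange). Sqstm1 read 3546, 3443 and 3203 in knockout mPFC OPCs, against 4269, 4003 and 4009 in control mPFC OPCs (-0.27 ± 0.06, and -0.21 after the exchange). For these 3 genes every knockout library lay below every control library. Ctso, Lamp2, Atp6v0d1 (a subunit of the proton pump's membrane part), Ctsa and Ppt1, the thioesterase that removes palmitate from proteins, fell by 0.23, 0.21, 0.20, 0.17 and 0.14. Of these 5, Ctso alone kept its call after the exchange.

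Scarb2 read 5043, 4958 and 5436 in knockout mPFC OPCs, against 4205, 4404 and 4265 in control mPFC OPCs. It rose by 0.26 ± 0.05 (adjusted p = 0.000709), or 0.22 after the exchange. The calls of the alpha-glucosidase gene Gaa (0.22 ± 0.08) and of Psap (0.15 ± 0.06) were less firm. Gaa lost its call without control replicate 2 or 3 or knockout replicate 1 or 2 (0.14 to 0.21, adjusted p 0.0996 to 0.177). Psap lost it without any single library other than knockout replicate 3 (0.11 to 0.17, adjusted p 0.0695 to 0.163). Exchange of the control labels also ended both calls. Microglial markers rose for 4 of 17 and fell for 0 in this comparison, where 47.4% of all genes were called. Without the lysosomal ones their sum was 716 to 782 in knockout mPFC OPCs, against 633 to 686 in control mPFC OPCs. With control labels exchanged its controls were at 886 to 994, above the knockout libraries. The direction of this sum therefore rests on which control group is which. The sum of the other myeloid markers was 900 to 1001 in knockout mPFC OPCs, against 1659 to 1779 in control mPFC OPCs, where Pf4 was at 0. Astrocyte markers rose for 8 of 10 and fell for 2, with a sum of 29754 to 30784 in knockout mPFC OPCs, against 21372 to 21674 in control mPFC OPCs. The part of these cells in the changes was not tested.

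Averaged over both regions, 1 member rose and 17 fell, where 54.4% of all genes were called, 26.9% higher and 27.5% lower. The median was -0.08 for the members and -0.01 for all genes. Scarb2 was the member that rose (0.33 ± 0.04, adjusted p = 2.52e-06). Gpnmb fell by 1.02 ± 0.04, Ctsf by 0.37 ± 0.04, Grn by 0.32 ± 0.04 and Ctso and Sqstm1 by 0.28 ± 0.04 each. Ctsb, Cstb and Ctsd fell by 0.26, 0.25 and 0.24, and the other 9 falls were of 0.10 to 0.40. The largest of those 9, Ctsk (-0.40 ± 0.15), lost its call on leaving out any 1 of 9 libraries, that is all but control hippocampus replicate 3, control mPFC replicate 2 and knockout mPFC replicate 1 (adjusted p 0.0514 to 0.0893). Of the 10 members with TCACGTG in the promoter 6 fell and 0 rose, and of the 22 matched members without it 9 fell and 1 rose.

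Counts of other genes of the pathway are given for the same comparison, in which 54.4% of all genes were called, 26.9% higher and 27.5% lower. Of 26 autophagy genes 20 fell and 0 rose (median -0.16). Of 30 further lysosomal hydrolases and their cofactors 4 rose and 15 fell, and of 22 tested membrane proteins 3 rose and 10 fell. Gm2a, the activator of ganglioside breakdown, fell by 0.44 ± 0.03, and the cholesterol exporter gene Npc1 by 0.36 ± 0.03. Of 16 V-ATPase genes 1 rose and 10 fell, and of 11 genes of mannose 6-phosphate sorting 2 rose and 5 fell. Among 21 genes of the Tfeb and mTORC1 circuit 5 rose and 9 fell, with Tfe3 at -0.28 ± 0.05. Tfeb itself was at 0.16 and did not pass. Markers moved too: 2 of 10 OPC markers rose and 8 fell, 2 of 17 microglial markers rose and 10 fell, 8 of 10 astrocyte markers rose and 1 fell, and 4 of 6 oligodendrocyte markers rose and 1 fell. Their part in the result was not tested.

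The knockout effect differed between regions for 8 members as labelled, 1 upward and 7 downward, where 24.4% of all genes were called, 11.8% upward and 12.6% downward. Hippocampus minus mPFC was -1.99 ± 0.09 for Gpnmb, -1.19 ± 0.30 for Ctsk, -0.77 ± 0.13 for Ctsz, -0.53 ± 0.14 for Ctsc, -0.43 ± 0.07 for Ctsd, -0.33 ± 0.06 for Ctsb, -0.24 ± 0.08 for Psap and 0.43 ± 0.10 for Lamp2. With control labels exchanged 6 members were called, all downward, again with no share of all genes set beside that count. Ctsc (-0.65) and Ctsd (-0.23) kept the call, and Cst3 (-0.53), Cstb (-0.49), Ctsl (-0.30) and Glb1 (-0.25) gained it. Gpnmb was then at -0.18 (adjusted p = 0.17) and Lamp2 at 0.03. The difference between regions for Gpnmb therefore rests on which control group is which.

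GABA is the main inhibitory transmitter, and OPCs carry its receptors. In cultures from mouse mPFC, 1 of the 36 members rose and 3 fell after 24 h of GABA, where 6.55% of all genes were called, 3.18% higher and 3.36% lower. Gpnmb read 780.2, 865 and 919 with GABA, against 1531, 1517 and 1529 untreated. Every treated library lay far below the untreated ones, and the change was -0.84 ± 0.06 (adjusted p = 2.17e-08). Ctsb read 7869.8, 7741 and 7621 with GABA, against 8683, 8667 and 8849 untreated (-0.17 ± 0.03, adjusted p = 0.00331). Lipa read 708, 741 and 637 with GABA, against 795, 802 and 852 untreated (-0.23 ± 0.06). Scarb2 read 5909, 5907 and 5988 with GABA, against 5402, 5516 and 5323 untreated (0.13 ± 0.03). Both pairs of groups lay apart, and both genes passed with all libraries. Each lost its call without GABA replicate 3 or without any of the untreated libraries, with adjusted p 0.0774 to 0.151 for Lipa and 0.0834 to 0.148 for Scarb2. The count of 4 became 7 without GABA replicate 1, and 2 without GABA replicate 3 or any 1 untreated library. Gpnmb and Ctsb were the 2 that remained. Of 16 tested microglial markers 1 rose and 1 fell, and their sum without lysosomal genes was 2016 to 2124 with GABA, against 2081 to 2176 untreated. The sum of other myeloid markers was 2679 to 2813 with GABA, against 3304 to 3771 untreated. Oligodendrocyte markers fell for 4 of 6 tested and rose for 0, and summed to 36349 to 36746 with GABA, against 40720 to 42172 untreated. The part of these cells in the changes was not tested.

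In mouse hippocampal cultures GABA changed more members: 9 rose and 7 fell of 36, where 24.7% of all genes were called, 11.9% higher and 12.8% lower. The median was 0.02 for the members and -0.00 for all genes. Gpnmb read 672, 682 and 688 with GABA, against 1023, 929 and 903 untreated, with no overlap (-0.48 ± 0.05, adjusted p = 2.29e-07). Ctsb read 6207, 6061 and 5867 with GABA, against 7419, 7516 and 7234 untreated (-0.29 ± 0.03, adjusted p = 2.41e-07). Lipa read 681, 621 and 609 with GABA, against 673, 808 and 814 untreated. Its lowest untreated library falls inside the treated range, and the change was -0.26 ± 0.06 (adjusted p = 0.00395). Atp6v0d1, Ctsd, Man2b1 (the acid alpha-mannosidase) and Ctsl fell by 0.18, 0.18, 0.13 and 0.13.

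The rises took in glycan hydrolases, of which 4 of 9 rose and 1 fell. Naglu, which removes N-acetylglucosamine from heparan sulfate, read 356, 346 and 332 with GABA, against 277, 222 and 248 untreated (0.47 ± 0.08, adjusted p = 0.000107). Glb1 read 569, 562 and 600.2 with GABA, against 477, 491 and 465 untreated (0.27 ± 0.06, adjusted p = 0.000943). Sgsh, the sulfatase that acts on heparan sulfate, was at 0.26 ± 0.09, but lost its call without GABA replicate 1 or 2 or untreated replicate 1 or 2 (adjusted p 0.0701 to 0.11). Ctso read 429, 419 and 378 with GABA, against 321, 346 and 325 untreated, and rose by 0.30 ± 0.07. The other rises were smaller: Scarb2 by 0.23 ± 0.03 and Cst3, the secreted cystatin C, by 0.22 ± 0.04. Gaa, Tpp1 (a tripeptidyl peptidase) and Psap rose by 0.12, 0.11 and 0.09. Of 30 further hydrolases and cofactors 8 rose and 3 fell, among them Npc2, a carrier of cholesterol in the lysosome lumen, at 0.32 ± 0.04. Of all genes 24.7% were called in this comparison, 11.9% higher and 12.8% lower. Microglial markers fell for 6 of 15 tested and rose for 0. Without the lysosomal ones their sum was 947 to 1048 with GABA, against 1226 to 1290 untreated, the sum of other myeloid markers was 1355 to 1401 with GABA, against 2439 to 2608 untreated, and their part in the falls was not tested.

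The GABA effect differed between the mouse cultures for 5 members, 4 upward and 1 downward, where 4.78% of all genes were called, 2.6% upward and 2.19% downward. Hippocampal minus mPFC culture was 0.52 ± 0.11 for Naglu, 0.36 ± 0.08 for Gpnmb, 0.28 ± 0.07 for Cst3, 0.19 ± 0.05 for Tpp1 and -0.22 ± 0.05 for Atp6v0d1. Gpnmb thus fell in both cultures and less in the hippocampal one. The count of 5 dropped to 3 without mPFC GABA replicate 1 or hippocampal GABA replicate 2. It was 2 without any untreated mPFC library, hippocampal GABA replicate 1 or 3, or untreated hippocampal replicate 2 or 3. Cst3 and Tpp1 each lost their call on leaving out any of these 9 libraries (adjusted p 0.0523 to 0.102), and Atp6v0d1 on leaving out 7 of them, all but mPFC GABA replicate 1 and hippocampal GABA replicate 2 (adjusted p 0.051 to 0.0688).

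**Figure D3:**
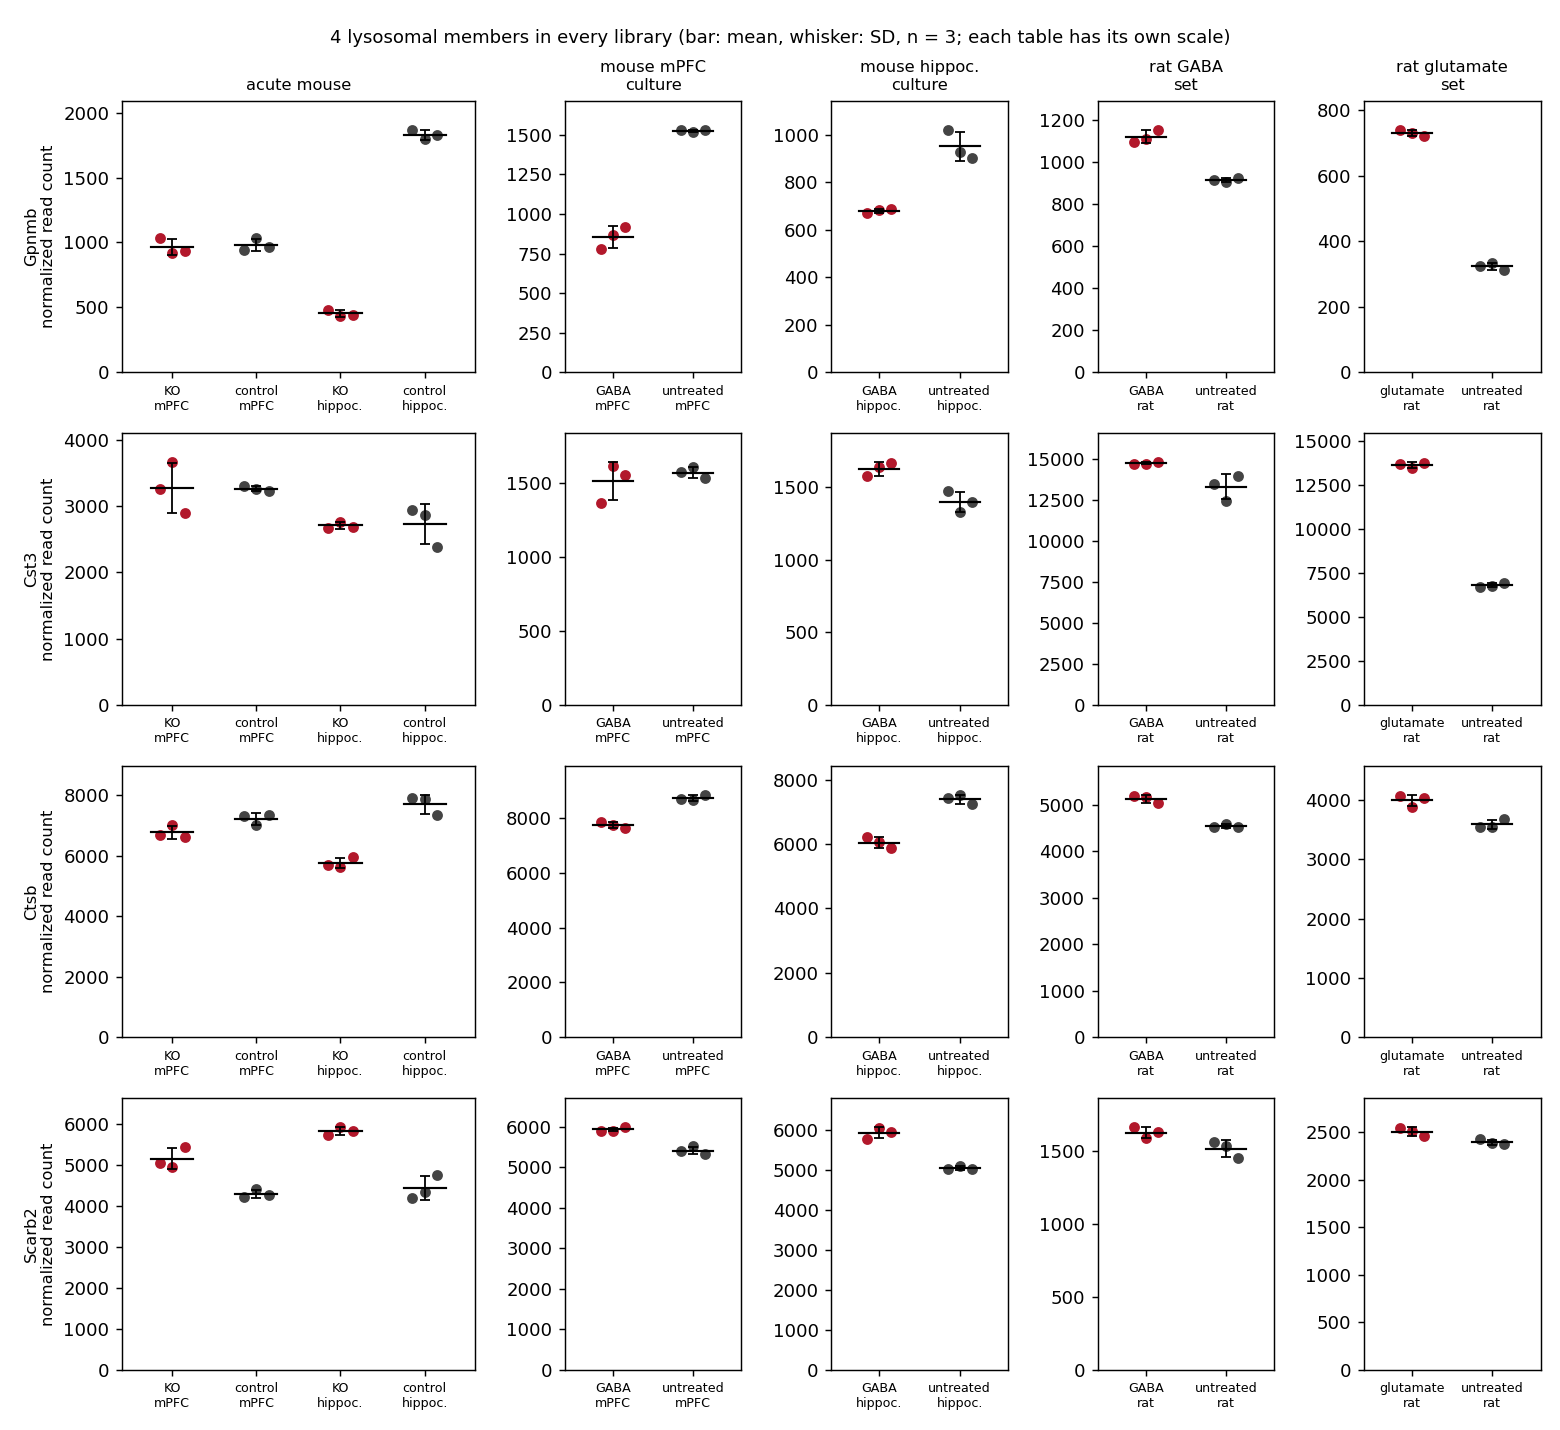
Normalized read counts of Gpnmb, Cst3, Ctsb and Scarb2 in every library, treated or knockout groups left of their controls; bars are means and whiskers SDs of 3 libraries, and each table has its own scale. Gpnmb is lower with GABA in both mouse cultures and higher with GABA and with glutamate in the rat sets, where Cst3 reads 13462 to 13738 with glutamate, against 6703 to 6920 untreated.

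In rat cortical cultures GABA gave 10 rises and 3 falls among 35 tested members, where 23.7% of all genes were called, 11.9% higher and 11.8% lower. Medians were 0.06 for the members and -0.01 for all genes. Ctsz read 266, 291 and 287 with GABA, against 184, 197 and 225 untreated (0.48 ± 0.08, adjusted p = 4.32e-05). Gpnmb read 1097, 1110.2 and 1153 with GABA, against 912, 903 and 925 untreated (0.29 ± 0.04, adjusted p = 1.54e-06). Ctsb read 5189, 5177 and 5036 with GABA, against 4521, 4588 and 4535 untreated (0.17 ± 0.03, adjusted p = 1.35e-05). In these 3 genes all GABA libraries lay above all untreated ones. Gpnmb and Ctsb moved in the direction opposite to that in the mouse cultures, a contrast between species and tables that was not tested. Ctso read 67.6, 83 and 65.6 with GABA, against 58, 36.9 and 59.3 untreated (0.50 ± 0.17, adjusted p = 0.0271). Its call was lost without GABA replicate 1 or 2 or untreated replicate 2 (0.28 to 0.54, adjusted p 0.0577 to 0.215).

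Cst3, Hexa (a subunit of beta-hexosaminidase), Ctsd, Scarb2, Lamp2 and Psap rose by 0.15, 0.15, 0.11, 0.10, 0.08 and 0.07. Man2b1, Grn and Atp6v0d1 were the 3 that fell, by 0.10, 0.09 and 0.08. Grn lost its call without any single library (adjusted p 0.0574 to 0.186). Man2b1 lost it without GABA replicate 2 or 3 or untreated replicate 1 or 2, and Atp6v0d1 without GABA replicate 2 or 3 (adjusted p 0.0732 to 0.156 and 0.0886 to 0.131). The count of 13 was 6 without GABA replicate 2 or without GABA replicate 3. Microglial markers rose together in this set, 14 of 15 tested with a median of 0.91 and none falling. Of all genes 23.7% were called there. Without lysosomal genes their sum was 1204 to 1268 with GABA, against 502 to 563 untreated, and none was at 0. Oligodendrocyte markers rose for 5 of 8 tested and fell for 0, and summed to 205881 to 207576 with GABA, against 168185 to 174463 untreated. The part of these cells in the rises of Ctsz, Ctsb and Gpnmb was not tested.

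**Figure D4:**
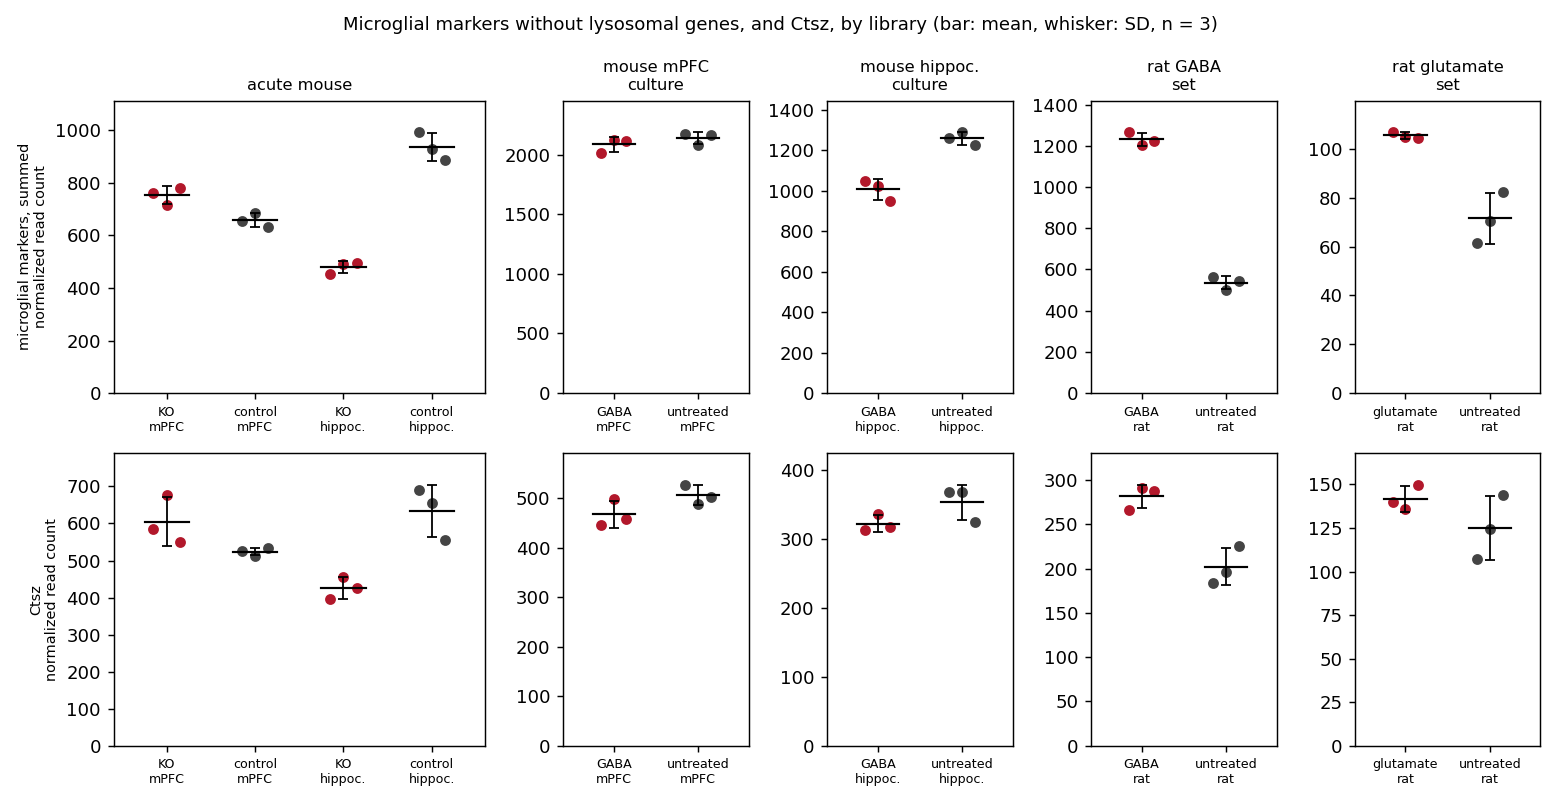
Summed normalized read count of microglial markers that are not lysosomal genes (upper row) and Ctsz (lower row) in every library, treated or knockout groups left of their controls; bars are means and whiskers SDs of 3 libraries. Both are higher with GABA than without in the rat set (marker sums 1204 to 1268 with GABA, against 502 to 563 untreated) and lower in knockout than in control hippocampal OPCs.

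Glutamate, the main excitatory transmitter, was the treatment with the most rises. Of 35 tested members 15 rose and 2 fell, where 28.3% of all genes were called, 14.1% higher and 14.2% lower. The median was 0.10 for the members and -0.00 for all genes. Both cystatins rose, as did 5 of 11 proteases and 3 of 9 glycan hydrolases, and none of either group fell.

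Gpnmb read 741, 731 and 722 with glutamate, against 323, 334 and 313 untreated. The groups are far apart, and the change was 1.17 ± 0.06 (adjusted p = 2.33e-30). Cst3 read 13716, 13462 and 13738 with glutamate, against 6703, 6729 and 6919.8 untreated (1.01 ± 0.02, adjusted p = 1.93e-53). Every glutamate library exceeded every untreated one by a wide margin. The untreated level of Cst3 in the GABA set, 12445 to 13975, was itself near that of the glutamate libraries, although levels across tables scaled apart cannot be compared directly. Ctsc read 113, 106 and 112 with glutamate, against 83.9, 72.7 and 71.4 untreated (0.54 ± 0.13, adjusted p = 0.000434). Ctso read 103, 113 and 83.8 with glutamate, against 84.9, 60.6 and 79.4 untreated. Its groups overlap, and its call (0.41 ± 0.14, adjusted p = 0.0147) was lost without glutamate replicate 1 or 2 or untreated replicate 2 (0.27 to 0.39, adjusted p 0.0514 to 0.178).

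Hexa rose by 0.30 ± 0.04, and Cd63, a tetraspanin of late endosomes and exosomes, by 0.29 ± 0.03. Gusb (beta-glucuronidase), Cstb, Gaa, Ctsl, Ctsb, Lamp2, Ppt1, Ctsd and Psap rose by 0.25, 0.20, 0.19, 0.17, 0.15, 0.10, 0.10, 0.09 and 0.06. Tfeb fell: it read 395, 399 and 385 with glutamate, against 523, 527 and 521 untreated, with no overlap (-0.41 ± 0.06, adjusted p = 7.78e-09). Its relative Mitf fell by 0.19 ± 0.05. Atp6v0d1 (-0.07 ± 0.03, adjusted p = 0.0275) lost its call without glutamate replicate 3 or untreated replicate 1 or 3 (-0.07 to -0.04, adjusted p 0.0794 to 0.321). Of the 9 tested members with TCACGTG in the mouse promoter 2 rose and 1 fell, and of the 22 without it 11 rose and 1 fell.

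Of 28 further hydrolases and cofactors tested 8 rose and 2 fell, and of 11 genes of mannose 6-phosphate sorting 3 rose and 1 fell, with the sorting receptors Sort1 at 0.18 ± 0.03 and Igf2r at 0.17 ± 0.03. Of 26 autophagy genes 0 rose and 2 fell. In this comparison 28.3% of all genes were called, 14.1% higher and 14.2% lower. Microglial markers were sparse here: 5 of 17 could be tested and 2 rose, and their sum without lysosomal genes was 105 to 107 with glutamate, against 61.6 to 82.4 untreated. Astrocyte markers rose for 6 of 9 tested and fell for 1, and summed to 45328 to 45724 with glutamate, against 38467 to 38747 untreated. Oligodendrocyte markers fell for 5 of 9 tested and rose for 0, and summed to 151337 to 153186 with glutamate, against 189088 to 191228 untreated. Cst3 is also abundant in astrocytes, and the part of these cell types in the changes was not tested.

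The glutamate effect was set against the GABA effect, each taken within its own rat set. They differed for 7 of 35 members, 5 upward and 2 downward, where 20.5% of all genes were called, 10% upward and 10.5% downward. Members were thus called at a share near that of all genes. Glutamate minus GABA was 0.88 ± 0.07 for Gpnmb, 0.86 ± 0.04 for Cst3, 0.31 ± 0.07 for Cstb, 0.23 ± 0.04 for Cd63 and 0.15 ± 0.05 for Hexa. It was -0.42 ± 0.07 for Tfeb (adjusted p = 1.55e-05), whose GABA change was 0.00, and -0.23 ± 0.09 for Lipa. The Lipa call was lost on leaving out any 1 of 9 libraries, all but untreated GABA-set replicate 1, glutamate replicate 2 and untreated glutamate-set replicate 2 (adjusted p 0.0593 to 0.17). No protease passed (0 of 11), and 1 of the 9 glycan hydrolases did.

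**Figure D5:**
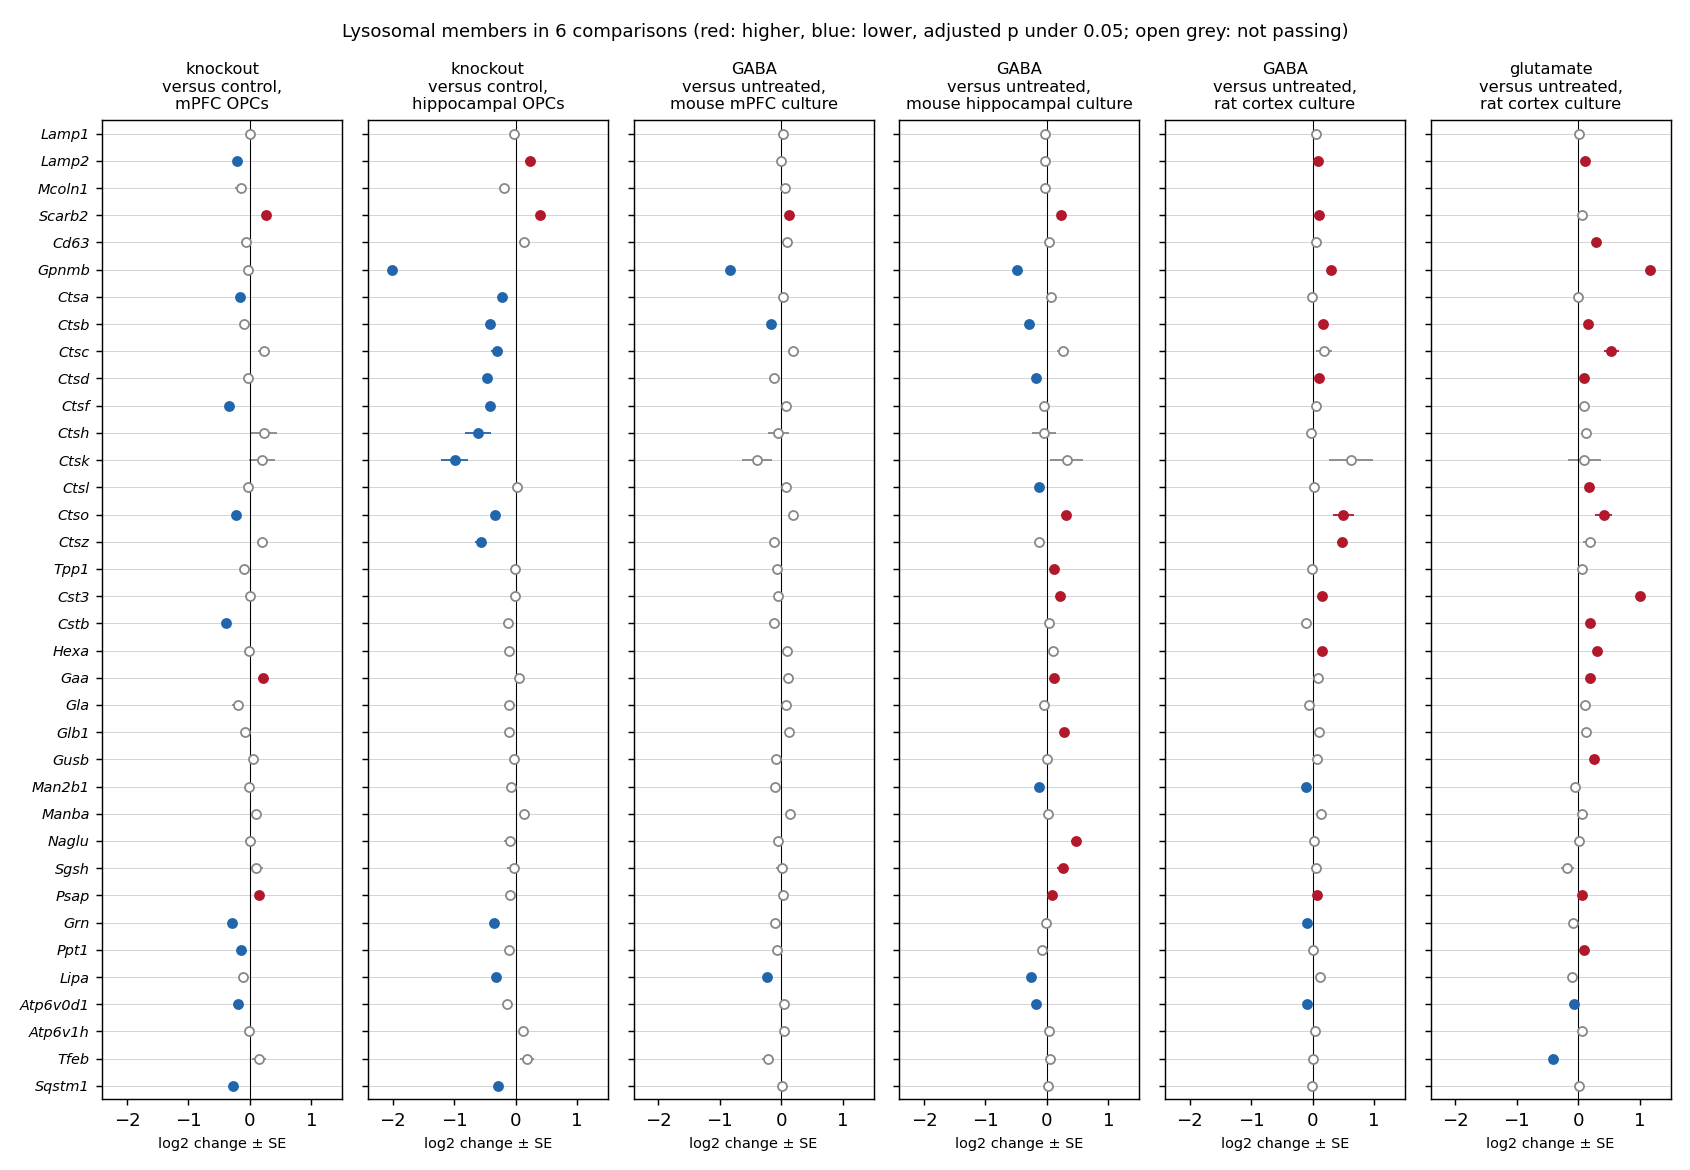
Log2 change ± SE of each member in 6 comparisons, by role from membrane proteins at the top to Sqstm1 at the bottom; filled red points are called higher, filled blue points called lower and open grey points did not pass. Gpnmb runs from -2.01 in knockout hippocampal OPCs to 1.17 with glutamate, and 9 of 11 proteases are called lower in knockout hippocampal OPCs.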

How the data were processed

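The authors deposited 5 tables of normalized signal: read counts divided by 1 factor per library, since in all 36 columns 100% of nonzero values were whole multiples of the column's smallest step (0.905 to 1.117) within a tolerance of 0.001. HISAT, Bowtie2 and DESeq2 and the build GRCm38.p6 are named in the submitters' processing notes, without roles or versions (for the rat samples this mouse build is the only one named). From the deposited signal, log2(value + 1) was compared with limma-trend (limma 3.58.1, R 4.3.3), 1 fit per table and 1 joint fit of both tables for each difference between mouse cultures or rat sets, for genes at 10 or more in at least 3 libraries, with Benjamini-Hochberg adjustment over all tested genes and calls at adjusted p under 0.05. The pseudocount understates changes of low genes. With 3 against 3 libraries an exact permutation test cannot give a p below 0.1, and smaller values come from limma's pooling of variance over genes. Effects of separate tables were compared as differences taken within each. The knockout hippocampus replicates bear the numbers 4 to 6 of their titles; their descriptions number the same libraries 1 to 3. The fit was tested on simulated data. Members and gene lists were chosen with earlier results of these data known; per-library values are given for up to 4 called members with the largest rise and 4 with the largest fall per comparison, and for a few others whose values a statement needed, chosen after they were seen. Of other lists, genes among the 4 smallest p-values were named.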

Additional observations from a re-analysis of the deposited data

Results flagged for a closer look

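The knockout effect differed between regions (hippocampus minus mPFC, control labels as deposited) for Gpnmb (-1.99), Ctsk (-1.19), Ctsz (-0.77), Ctsc (-0.53), Ctsd (-0.43), Ctsb (-0.33), Psap (-0.24) and Lamp2 (0.43), by the interaction term of the limma fit; of these, Ctsc and Ctsd passed with the control labels exchanged. The GABA effect differed between mouse cultures (hippocampal minus mPFC) for Naglu (0.52), Gpnmb (0.36), Cst3 (0.28), Tpp1 (0.19) and Atp6v0d1 (-0.22), by the difference term of the joint fit. Of all genes 24.4% were called for the difference between regions, a share near that of the members, and 4.78% for the difference between cultures.

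GABA moved Gpnmb, Ctsb and Ctsd one way in every rat library and the opposite way in every library of a mouse culture. Rat minus mouse mPFC culture was 1.13 for Gpnmb and 0.35 for Ctsb, and rat minus mouse hippocampal culture was 0.77 for Gpnmb, 0.46 for Ctsb and 0.28 for Ctsd. These differences between species were not tested.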

How the results depend on the processing

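None of the 59 results on named members, each a call with all libraries and labels as deposited, reversed under any alternative run. Members not called there were outside that check, and some changed sign with the control labels exchanged. The difference between regions went from 0.26 (not called) to -0.49 (called) for Cstb, and from 0.06 (not called) to -0.30 (called) for Ctsl. Every count of called members stayed within 1.5 times under pseudocounts of 0.1 and 10, median-of-ratios rescaling and quantile normalization. The same held for a fit of only the groups of the contrast and for exchange of the control region labels. The rescaling tested little in the knockout comparisons, where the counts of called genes were unchanged (3374 higher and 3248 lower in mPFC both times). Exchange of the labels could not change the mean of both regions. It did change which members were called in the other knockout comparisons. Of the 8 called for the difference between regions, Ctsc and Ctsd alone kept the call. Without the filter the count for GABA in mouse mPFC cultures was 2 in place of 4; the cause was not tested. On leaving out 1 library at a time the counts ranged from 8 to 14 (knockout, mPFC), 12 to 16 (knockout, hippocampus), 13 to 20 (mean of both regions), 7 to 10 (difference between regions), 2 to 7 (GABA, mouse mPFC), 11 to 17 (GABA, mouse hippocampus), 2 to 6 (difference between mouse cultures), 6 to 12 (GABA, rat), 13 to 16 (glutamate) and 5 to 8 (glutamate minus GABA). Of 870 alternatives over 59 results on named members, 743 kept the call and 127 lost it, in 23 results. The 743 include runs that could hardly change a result, such as the exchange for the mean of both regions. Same-numbered libraries correlated at -0.05 to 0.12 in their deviations, which is weak. In both acute comparisons, by the numbers of the descriptions, 2 of 3 knockout libraries correlated best with the control of their own number. In each culture comparison 1 of 3 treated libraries did so with its untreated library. Whether the libraries are paired is not known. A replicate block kept all 7 counts whose groups share numbers in the titles within 1.5 times (10 in place of 12 for the mPFC knockout, 18 in place of 16 for GABA in mouse hippocampal cultures). For the other 3 comparisons the block used the numbers of the descriptions, an alternative chosen after seeing the data, and gave 18 in place of 15 (hippocampal knockout), 19 in place of 18 (mean of both regions) and 8, the same 8 genes, for the difference between regions. The planned edgeR and DESeq2 fits were not run, since the recovered reads were not accepted as counts for every library. Low counts limit Ctsk and Ctsh, whose SE in the hippocampal knockout comparison was 0.21.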
